A study of Homo sapiens with 3 samples.

Results

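The genes described here encode the pyruvate dehydrogenase complex and its regulators, and the mitochondrial enzymes that link pyruvate and phosphoenolpyruvate to oxaloacetate. These genes also encode the enzymes of the tricarboxylic acid (TCA) cycle, and the malate-aspartate shuttle with the malic enzymes. They were taken by symbol from a list of 37, of which 35 were analysed among the 17329 genes of the table. ME1 and ME3 were not analysed here. All 35 had a mean of at least 50 normalized counts over the 3 libraries, the floor above which ratios were computed for 12292 genes.

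The cells were Jurkat, an established human leukaemia line of the T lineage, cultured for 48 hours, and 1 library of polyadenylated RNA was sequenced per condition. The oxamate+lactate culture received sodium oxamate at 50 mM, which inhibits lactate dehydrogenase, together with L-sodium lactate at 10 mM. The oxamate culture received 50 mM of sodium oxamate alone, and the control culture standard medium. All 3 cultures were kept in RPMI medium with fetal bovine serum. The study asked how lactylation of histone H3 at lysine 18, which depends on lactate, relates to transcription. With 1 library per condition there is no replicate check, no p-value and no standard error, and "higher" and "lower" compare libraries.

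Pyruvate made by glycolysis is either reduced to lactate by lactate dehydrogenase, the enzyme oxamate inhibits, or imported into mitochondria and oxidised by the pyruvate dehydrogenase complex to acetyl-CoA. The kinases PDK1, PDK2 and PDK3 switch the complex off by phosphorylating it, and the phosphatases PDP1 and PDP2 switch it on. Acetyl-CoA enters the TCA cycle at citrate synthase, pyruvate carboxylase refills the cycle, and the malate-aspartate shuttle carries reducing equivalents of cytosolic NADH into mitochondria, a task that lactate dehydrogenase otherwise spares the cell. Proliferating T-lineage cells use the cycle for aspartate and citrate as well as for energy.

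Most of the genes had similar levels in the 3 libraries, apart from PCK2 and PDK1, which were lower under oxamate, and SUCLG2 at the edge of the 1.5-fold mark. Their values summed to 28755 normalized counts in oxamate+lactate, 30237 in oxamate and 30770 in control, which is 0.352%, 0.343% and 0.374% of the sum over all genes of those libraries. The plot of normalized counts by gene shows the 3 libraries of most genes close together, and those of PCK2 and PDK1 spread the most.

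**Figure D1:**
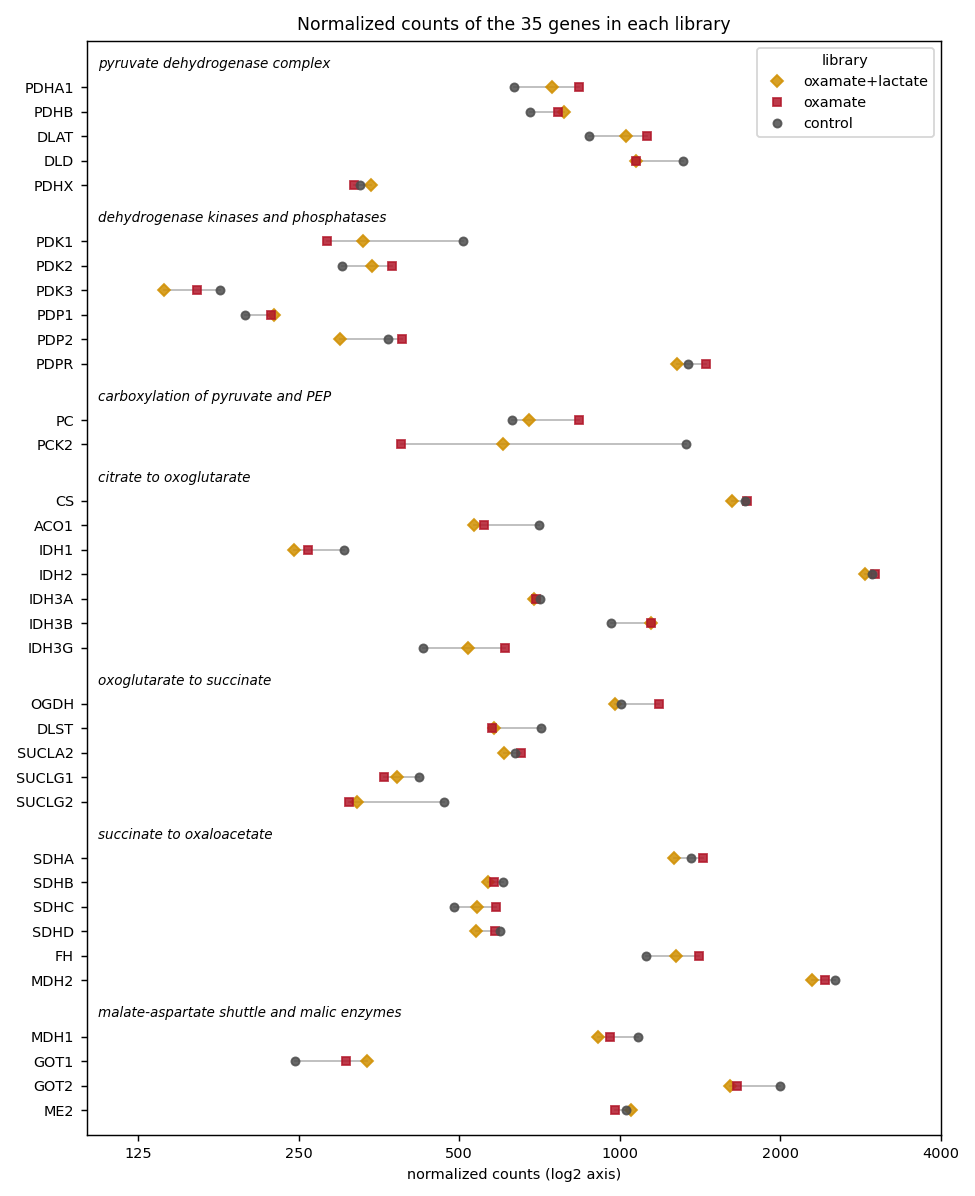
Normalized counts (x axis, log2 scale) of the 35 genes, grouped by role, in the oxamate+lactate, oxamate and control libraries; each symbol is 1 library and a grey line joins the lowest and highest. PCK2 spans 389 to 1331 and PDK1 283 to 508, with control highest in both.

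Promoters of PCK2, PDK1 and SUCLG2, the genes whose oxamate values were lowest relative to control, are shown because these genes carry the difference. Each run is the 250 bases before an annotated start in RefSeq (GRCh38.p14), 5′ to 3′ on the gene's strand, with motif matches in capitals.
PCK2 promoter, chr14:24094061-24094310, plus strand: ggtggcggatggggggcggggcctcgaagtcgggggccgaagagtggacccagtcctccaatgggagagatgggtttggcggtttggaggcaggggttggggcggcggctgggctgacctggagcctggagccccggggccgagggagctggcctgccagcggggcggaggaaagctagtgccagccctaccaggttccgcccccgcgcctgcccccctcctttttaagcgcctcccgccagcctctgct
PDK1 promoter, chr2:172555840-172556089, plus strand: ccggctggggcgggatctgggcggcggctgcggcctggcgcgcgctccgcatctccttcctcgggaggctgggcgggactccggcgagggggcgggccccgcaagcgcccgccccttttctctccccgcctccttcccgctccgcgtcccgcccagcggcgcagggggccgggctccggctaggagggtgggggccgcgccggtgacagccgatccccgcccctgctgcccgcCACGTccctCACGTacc
SUCLG2 promoter, chr3:67654613-67654862, minus strand: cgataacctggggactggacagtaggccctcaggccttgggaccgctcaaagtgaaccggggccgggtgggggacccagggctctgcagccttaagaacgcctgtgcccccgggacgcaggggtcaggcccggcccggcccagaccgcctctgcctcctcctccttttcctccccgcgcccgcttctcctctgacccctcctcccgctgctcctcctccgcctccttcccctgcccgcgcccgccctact

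Response elements known from metabolic stress were searched for on both strands, and matches of different elements could overlap. They were TGATGNAAN (the C/EBP-ATF element bound by ATF4), TGACNNNGC (the antioxidant element) and ACGTG (the core of the hypoxia element). The PDK1 window held ACGTG on the reverse strand, read as CACGT in the printed run, with its first base at -17 and again at -8 relative to the start. A second annotated PDK1 start, not printed, had no match, and neither had the PCK2 and SUCLG2 windows. Among the 32 genes of the set with a window in the table, 12 (37.5%) held ACGTG in at least 1 window. The share was 21.7% of the 27303 genes in the promoter table. Those genes were not matched to the set for expression, GC content or number of windows. The difference between the shares therefore cannot be read as enrichment. The 12 were DLAT, GOT2, IDH1, IDH3G, PC, PDHB, PDHX, PDK1, PDK2, PDK3, PDP2 and PDPR. They include genes higher and genes lower in oxamate than in control. TGACNNNGC was found in 3 (GOT2, IDH1 and IDH3G) and TGATGNAAN in 1 (GOT1), which is 9.38% and 3.13%, against 13.2% and 3.87% of all genes. These matches describe letters only, since no factor binding was measured.

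The values are normalized counts as deposited, and their depth in reads is unknown. Ratios are given as log2((value + 1)/(value + 1)), which is close to the plain ratio for genes at these levels. They summed over genes to 8171633 in oxamate+lactate, 8821115 in oxamate and 8220199 in control. Scaling the libraries to equal sums moved the median ratio of all genes by -0.10 for oxamate against control and by 0.11 for oxamate+lactate against oxamate, so ratios within about that distance of 0 are described below as level. The 18 ERCC spike-in RNAs with a mean of at least 100, added to the extracted RNA and so blind to differences between cultures, had ratios of -0.24 to 0.29 for oxamate against control. LDHA and LDHB, the targets of the inhibitor, were level at 4952 and 7363 in oxamate and 4937 and 7383 in control. Of 11 T-lineage markers, 10 were over the floor. The exception, CD28, had 20 normalized counts in oxamate+lactate, 66 in oxamate and 3 in control. The 11 summed to 15736, 17452 and 15046 in oxamate+lactate, oxamate and control, a sum in which CD28 hardly counts. Of 10 markers of B, myeloid, epithelial and erythroid cells, 3 were analysed and summed to 114, 105 and 137. In bulk RNA, fewer cells of a kind and less RNA per cell cannot be told apart.

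Oxamate against control compares sodium oxamate, the inhibitor of lactate dehydrogenase, with standard medium. No culture received added sodium without oxamate, so blocking the enzyme was not tested apart from that sodium. Of the 35 genes, 3 were lower in oxamate by at least 1.5-fold (8.57%, where 3.98% of the 12292 genes were), and 0 were higher by that much (where 7.48% were). The median ratio of the 35 was 0.01, with an interquartile range of -0.19 to 0.24, beside a median of 0.08 and a range of -0.14 to 0.30 over all genes. At 1.3-fold, 3 genes were higher (PDHA1, PC and IDH3G, 8.57%, where 18.2% of all genes were) and the same 3 were lower (8.57%, where 9.51% were). Centred on that median of all genes, the 1.5-fold counts were still 0 higher and 3 lower, and 5.16% and 5.33% of all genes passed. The ratios of 7 genes lay above and those of 7 others below the range of the ERCC RNAs. The upper quartile of all genes, 0.30, also lay above that range, which ended at 0.29. Of the genes outside it, those nearest to it were PDK2 above and GOT2 below. PDK2 had the 2939th highest ratio of the 12292 genes and GOT2 the 1795th lowest, so many other genes lay outside on both sides. A place outside it therefore does not set these genes apart from the rest. In a set of this size a single gene is 2.86%.

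**Figure D2:**
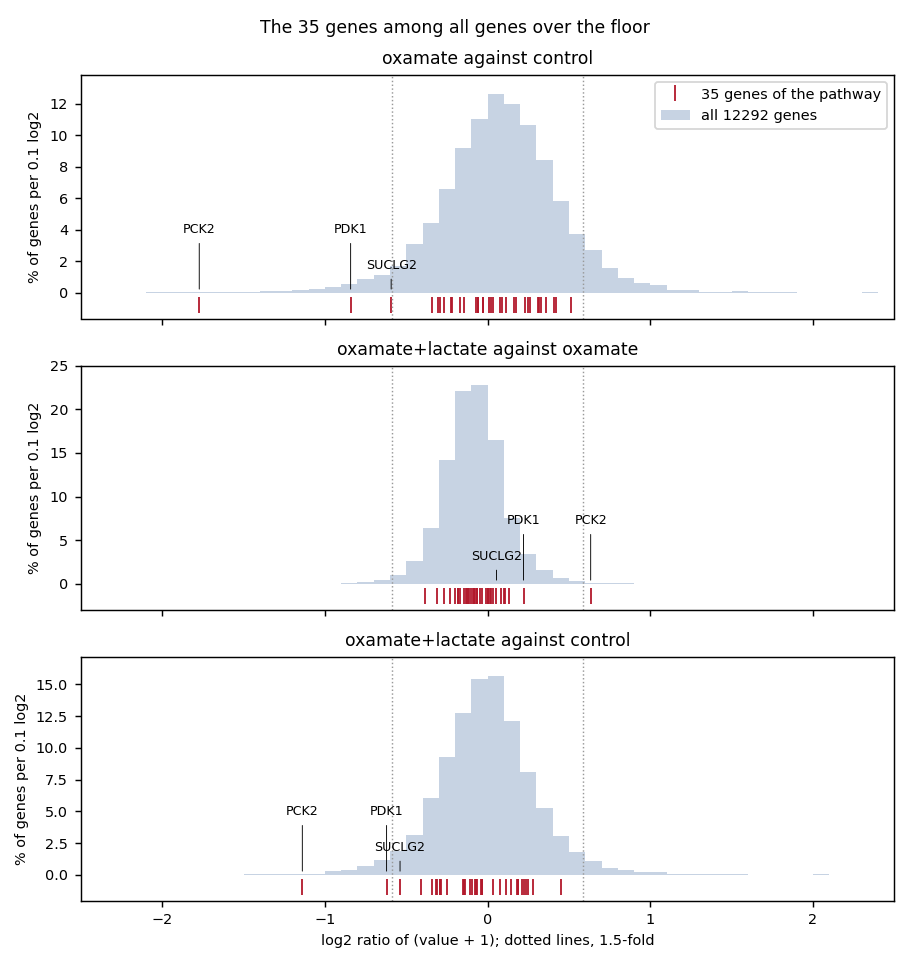
Histograms of log2 ratios (x axis) for all 12292 genes over the floor, as the percentage of genes per 0.1 log2 (y axis), with the 35 genes as red ticks, for each pair of libraries. In the top panel PCK2 at -1.77 and PDK1 at -0.84 lie left of the 1.5-fold line, SUCLG2 at -0.59 sits on it, and the others fall within the main body.

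The lowest ratio was that of PCK2, the mitochondrial phosphoenolpyruvate carboxykinase, which turns oxaloacetate into phosphoenolpyruvate and is a known target of the amino acid response factor ATF4. PCK2 had 604 normalized counts in oxamate+lactate, 389 in oxamate and 1331 in control. Oxamate was the lowest library, control the highest, and oxamate+lactate lay between. The value in oxamate was 3.42-fold lower than in control (log2 ratio -1.77), the 12th lowest of the 12292 genes. With lactate added it was 1.55-fold higher than in oxamate (0.63, the 21st highest), and still 2.20-fold lower than in control (-1.14, the 26th lowest). PCK2 shares no exon with another coding gene in GENCODE 29. NRL, a neighbour whose gene body overlaps it, had 84, 100 and 90 in oxamate+lactate, oxamate and control, a small fraction of the difference.

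PC, pyruvate carboxylase, which makes oxaloacetate from pyruvate, went the other way. It had 677 normalized counts in oxamate+lactate, 839 in oxamate and 627 in control (0.42 for oxamate against control). The number of PCK2 counts per PC count was 0.892 in oxamate+lactate, 0.464 in oxamate and 2.12 in control. This ratio within a library does not depend on how the libraries were scaled. PC shares 10.5% of its exon bases with LRFN4, which had 774, 972 and 596 counts in oxamate+lactate, oxamate and control and so moved with PC. The part of LRFN4 reads in the PC value was not tested.

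The kinase PDK1, which inhibits pyruvate dehydrogenase and is a known target of the hypoxia factor HIF-1, was also lower under oxamate. It had 330 normalized counts in oxamate+lactate, 283 in oxamate and 508 in control. Both treated libraries lay well below control. Oxamate was 1.79-fold lower than control (-0.84, the 180th lowest ratio), oxamate+lactate 1.54-fold lower (-0.62), and oxamate+lactate 1.17-fold higher than oxamate (0.22). The other kinases stayed under 1.3-fold in this comparison. PDK2 had 343 in oxamate+lactate, 374 in oxamate and 301 in control (0.31 for oxamate against control), and PDK3, the lowest of the kinases in counts, had 140, 161 and 178 (-0.14). PDK1 counts per PDK2 count were 0.962 in oxamate+lactate, 0.757 in oxamate and 1.69 in control. PDK2 shares 38.6% of its exon bases with SAMD14, which had 172, 183 and 179 in the same libraries.

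The phosphatase genes lay near the median of all genes, which was 0.08 for oxamate against control. PDP1, a catalytic subunit of the phosphatase, had 222 normalized counts in oxamate and 198 in control (0.16), PDP2, the other catalytic subunit, 391 and 367 (0.09), and PDPR, the regulatory subunit, 1451 and 1344 (0.11). PDPR has near-identical copies in the human genome, so its value is uncertain. Within this group the ratios for oxamate against control ran from -0.84 for PDK1 to 0.31 for PDK2.

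Subunits of the pyruvate dehydrogenase complex differed among themselves. PDHA1, the alpha subunit of the decarboxylase that the kinases phosphorylate, had 746 normalized counts in oxamate+lactate, 839 in oxamate and 633 in control (0.41 for oxamate against control). PDHB, the beta subunit, had 786, 767 and 679 (0.18), and DLAT, the lipoate-bearing acetyltransferase core, had 1026, 1124 and 877 (0.36). In all 3 of these genes control was the lowest library. DLD, the dihydrolipoamide dehydrogenase that the complex shares with other oxoacid dehydrogenases, had 1072 in oxamate+lactate, 1072 in oxamate and 1313 in control (-0.29), so control was the highest. PDHX, which tethers DLD to the core, had 342, 318 and 325 (-0.03) and was level. DLD counts per DLAT count were 1.04 in oxamate+lactate, 0.954 in oxamate and 1.5 in control. PDK1 counts per PDHA1 count, kinase against its substrate, were 0.442, 0.337 and 0.803. PDHA1 shares 21.3% of its exon bases with MAP3K15, which had 256, 266 and 206 counts in those libraries and so moved with PDHA1. The part of MAP3K15 reads in the PDHA1 value was not tested.

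**Figure D3:**
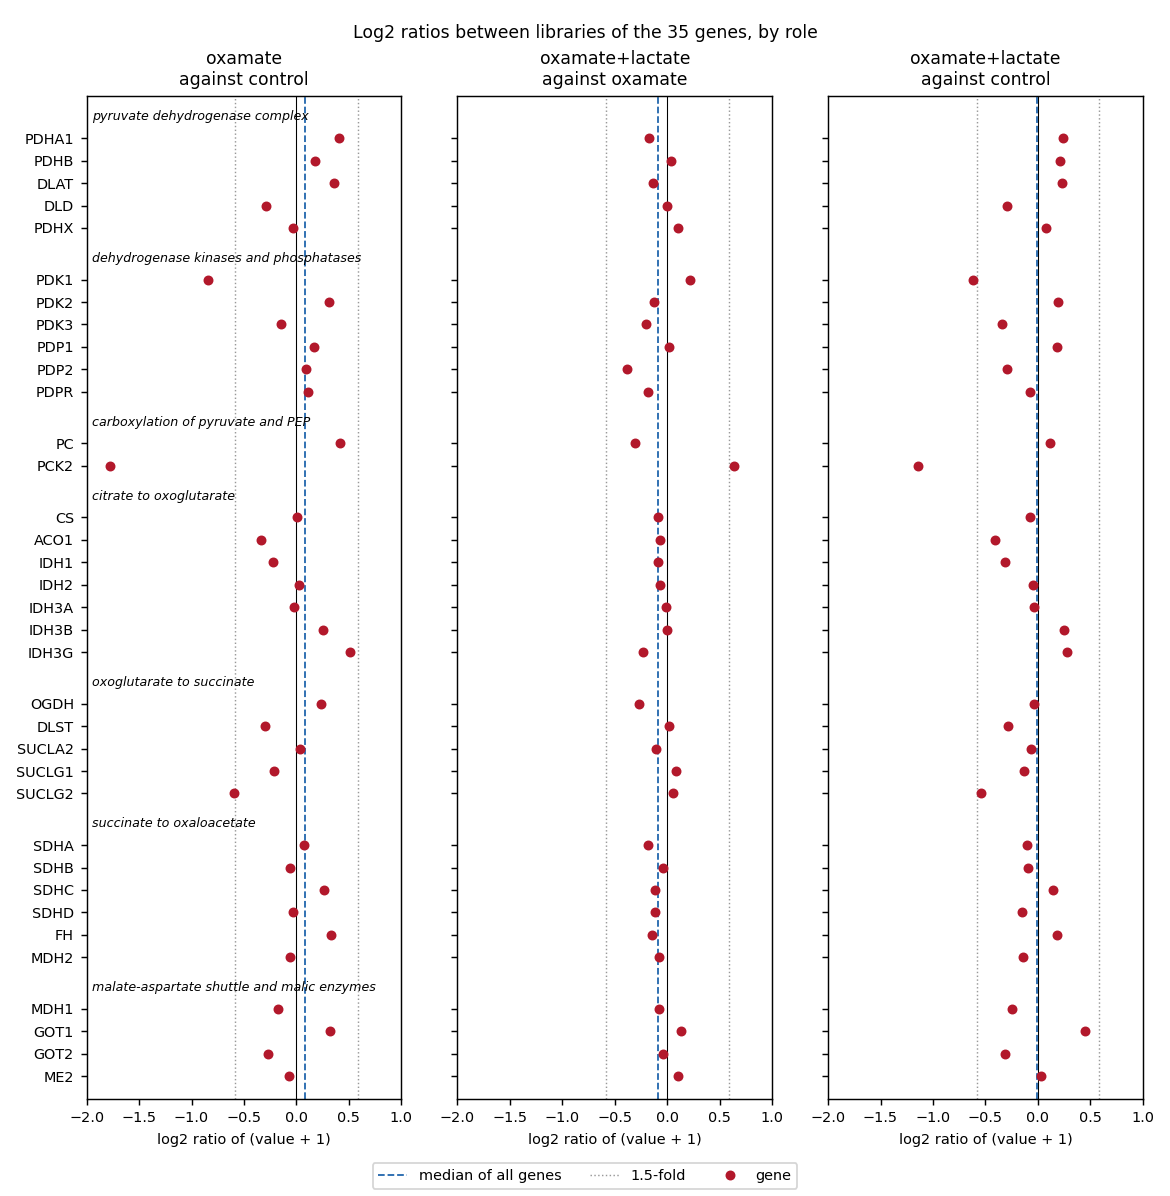
Log2 ratios (x axis) of the 35 genes by role for oxamate against control, oxamate+lactate against oxamate and oxamate+lactate against control; each point is 1 gene, the dashed line is the median of all genes and dotted lines mark 1.5-fold. PCK2 is lowest at -1.77 and -1.14 in the comparisons with control and highest at 0.63 in oxamate+lactate against oxamate.

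The enzymes from citrate to oxoglutarate had a median ratio of 0.01 for oxamate against control. CS, citrate synthase, had 1625 normalized counts in oxamate+lactate, 1729 in oxamate and 1718 in control (0.01), and IDH2, the mitochondrial NADP-dependent isocitrate dehydrogenase, had 2878, 3011 and 2966 (0.02). Both were level. ACO1, a cytosolic aconitase that also acts as an iron-sensing RNA-binding protein, was the lowest of this segment, with 532, 557 and 706 (-0.34). IDH1, the cytosolic isocitrate dehydrogenase, had 245, 260 and 304 (-0.22). The NAD-dependent isocitrate dehydrogenase, the form that serves the cycle, has 3 kinds of subunit, and their genes did not move alike. The catalytic subunit gene IDH3A had 691 in oxamate+lactate, 696 in oxamate and 709 in control (-0.03), IDH3B 1144, 1143 and 962 (0.25), and IDH3G 519, 610 and 427 (0.51), the highest ratio of the 35 genes. IDH3A shares 38.2% of its exon bases with ACSBG1, which had 339, 337 and 407 counts in oxamate+lactate, oxamate and control and so was lower in both treated libraries. The part of ACSBG1 reads in the IDH3A value was not tested. IDH3G shares 10.2% with SSR4, which had 757, 781 and 746, with little difference between libraries.

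From oxoglutarate to succinate, 4 of 5 genes lay below the median of all genes. OGDH, the decarboxylase of the oxoglutarate dehydrogenase complex, was the exception, with 981 normalized counts in oxamate+lactate, 1182 in oxamate and 1006 in control (0.23 for oxamate against control). DLST, the succinyltransferase core of the same complex, had 582, 575 and 710 (-0.30), near the -0.29 of DLD, its partner subunit. Succinyl-CoA ligase has an alpha subunit, SUCLG1, that pairs either with SUCLA2 to make ATP or with SUCLG2 to make GTP. SUCLG2 had 322 in oxamate+lactate, 310 in oxamate and 468 in control, so both treated libraries were low. Oxamate was 1.51-fold lower than control (-0.59) and oxamate+lactate 1.45-fold lower (-0.54). The 1.5-fold call of SUCLG2 was lost with a pseudocount of 10 (-0.58) and with the trend on GC content and length removed (-0.45). SUCLA2 had 607, 652 and 636 (0.04) and was level, and SUCLG1 had 382, 361 and 420 (-0.22). SUCLG2 counts per SUCLA2 count were 0.530 in oxamate+lactate, 0.475 in oxamate and 0.736 in control.

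The last steps of the cycle were the most even. Subunits of succinate dehydrogenase, which is also complex II of the respiratory chain, ran from -0.06 to 0.26 for oxamate against control. SDHA, the flavoprotein, had 1263 normalized counts in oxamate+lactate, 1432 in oxamate and 1361 in control (0.07). SDHA has near-identical copies, and its pseudogene SDHAP1 had 258, 272 and 225 counts. The iron-sulfur subunit gene SDHB had 566, 580 and 604 (-0.06), and the membrane anchors SDHC and SDHD had 0.26 and -0.03. FH, fumarase, was the highest of this segment, with 1277, 1410 and 1122 (0.33), and control was its lowest library. MDH2, the mitochondrial malate dehydrogenase, had 2292, 2426 and 2530 (-0.06) and was level.

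In the malate-aspartate shuttle, the aspartate aminotransferases GOT1, cytosolic, and GOT2, mitochondrial, went in opposite directions. GOT1 had 336 normalized counts in oxamate+lactate, 307 in oxamate and 246 in control (0.32 for oxamate against control, 0.45 for oxamate+lactate against control). It was the only one of the 35 genes higher in oxamate+lactate than in control by at least 1.3-fold. GOT2 had 1607, 1657 and 1999 (-0.27 and -0.31), with control the highest library. GOT1 counts per GOT2 count were 0.209 in oxamate+lactate, 0.185 in oxamate and 0.123 in control. MDH1, the cytosolic malate dehydrogenase, had 910, 960 and 1081 (-0.17), and the MDH1 count per MDH2 count was 0.397, 0.396 and 0.427. ME2, the mitochondrial malic enzyme that makes pyruvate from malate, had 1051, 980 and 1029 (-0.07) and was level.

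**Figure D4:**
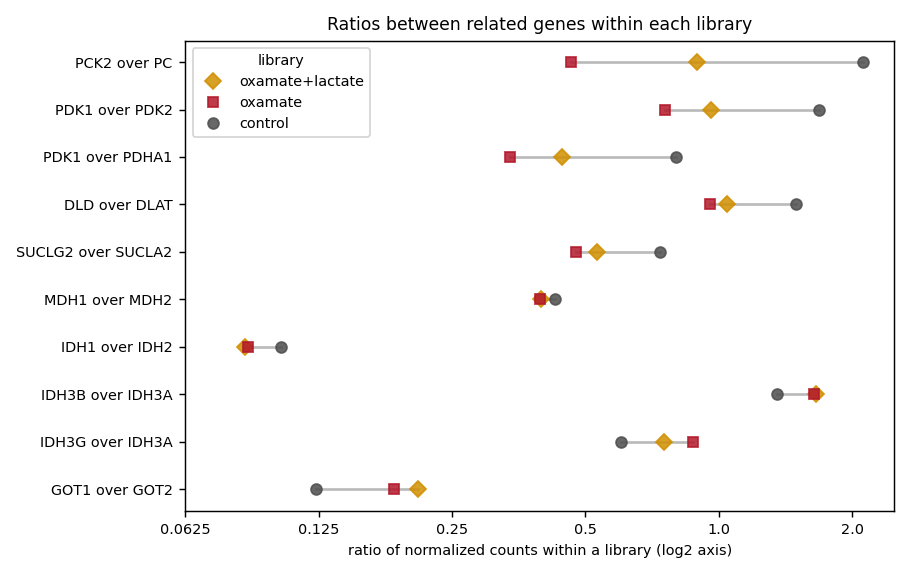
Ratio of the normalized counts of related genes within each library (x axis, log2 scale); each symbol is 1 library. PCK2 over PC and PDK1 over PDK2 are highest in control, at 2.12 and 1.69, and GOT1 over GOT2 is lowest in control, at 0.123.

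Levels of different genes were compared per kb of the longest coding transcript. For each of 3 reactions with a mitochondrial and a cytosolic enzyme, the mitochondrial one had the higher level per kb in control. IDH2 had 1101 normalized counts per kb and IDH1 had 124.5, MDH2 had 1145 and MDH1 had 655, and GOT2 had 812 and GOT1 had 84.2. The order in each pair was the same per kb of all exons and in the other libraries. MDH2, IDH2 and GOT2 were the 3 highest of the 35 genes by either length. PDK1 was the lowest by either length, with 35.8 counts per kb of a transcript of 14193 bases, so its level depends on how much of that transcript is made.

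Oxamate+lactate against oxamate compares sodium lactate added to oxamate with oxamate alone, and the 35 genes differed little. Lactate cannot be told apart here from the sodium given with it. This comparison shares its oxamate library with oxamate against control. A value that is off in that library alone moves both ratios, in opposite directions. PCK2 was the only one of them higher by at least 1.5-fold (2.86%, where 0.252% of the 12292 genes were), and 0 were lower by that much (where 0.903% were). At 1.3-fold there was 1 in each direction, PCK2 higher and PDP2 lower (2.86% each, where 1.5% and 5.39% of all genes passed). The median ratio was -0.08, beside -0.09 over all genes. PDK1 had the next highest ratio, 0.22. The lowest belonged to PDP2, with 299 normalized counts in oxamate+lactate and 391 in oxamate (-0.39), followed by PC (-0.31) and OGDH (-0.27). Ratios of the 18 ERCC RNAs ran from -0.39 to 0.10, and 0 of the 35 genes lay below that range. Those above it were GOT1, ME2, PCK2, PDHX and PDK1. ME2, the lowest of these at 0.10, had the 1681st highest ratio of the 12292 genes. The interval from 0.1 to 0.2 alone held 7.6% of all genes, and further genes had higher ratios. A place above it therefore does not by itself set a gene apart.

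Oxamate+lactate against control shares its control library with the comparison of oxamate, so the values stand side by side and do not count as a repeat. In oxamate+lactate 2 genes, PCK2 and PDK1, were lower than in control by at least 1.5-fold (5.71%, where 3.07% of all genes were), and 0 were higher by that much (where 2.99% were). At 1.3-fold, PCK2, PDK1, SUCLG2 and ACO1 were lower (11.4%, where 8.88% of all genes were) and GOT1 was higher (2.86%, where 8.44% were). The median ratio was -0.07, beside -0.01 over all genes. The 1.5-fold call of PDK1 was lost with equal ERCC sums (-0.55) and with the trend on GC content and length removed (-0.58). SUCLG2 followed at -0.54 and ACO1 at -0.41. For SUCLG2 the ratio against control was -0.59 in oxamate and -0.54 in oxamate+lactate, for DLD -0.29 and -0.29, for DLST -0.30 and -0.29, and for GOT2 -0.27 and -0.31. For PCK2 it was -1.77 and -1.14.

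Other genes of the same pathways were counted as a list of 37, of which 28 were over the floor. In oxamate against control, 4 were lower by at least 1.5-fold (14.3%, where 3.98% of all genes were) and 2 were higher by that much (7.14%, where 7.48% were), and the median was 0.01. SLC25A12, the aspartate-glutamate carrier of the malate-aspartate shuttle, had 208 normalized counts in oxamate+lactate, 188 in oxamate and 306 in control (-0.70). GPD2, the mitochondrial enzyme of the glycerol phosphate shuttle, the other route for cytosolic reducing equivalents, had 112, 102 and 163 (-0.67). In each of these genes both treated libraries lay below control. LIAS, lipoic acid synthetase, which makes the cofactor bound by DLAT and DLST, had 119, 104 and 175 (-0.75). GPT2, the mitochondrial alanine aminotransferase, which links pyruvate and glutamate to alanine and oxoglutarate, had 976, 761 and 1332 (-0.81), so oxamate was lowest and oxamate+lactate lay between.

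The 2 higher genes of that list were D2HGDH, which oxidises D-2-hydroxyglutarate, with 292, 359 and 209 in oxamate+lactate, oxamate and control (0.78), and GLS2, a glutaminase, with 65, 98 and 54 (0.85). GLS2 shares 77.1% of its exon bases with SPRYD4, which had 101, 135 and 67, so the values of those genes cannot be told apart. The subunits of the mitochondrial pyruvate carrier were level, with MPC1 at 0.06 and MPC2 at 0.01. SLC25A13, the other aspartate-glutamate carrier, had 59, 65 and 78 (-0.26), and SLC25A11, the oxoglutarate-malate carrier, had 706, 820 and 723 (0.18). In oxamate+lactate against oxamate, GLS2 (-0.58) was the only one of the 28 lower by at least 1.5-fold (3.57%, where 0.903% of all genes were), and 0 were higher by that much (where 0.252% were). In oxamate+lactate against control, 0 of the 28 passed in either direction, where 2.99% of all genes were higher and 3.07% lower, which is near 1 gene each way in a list of this size.

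**Figure D5:**
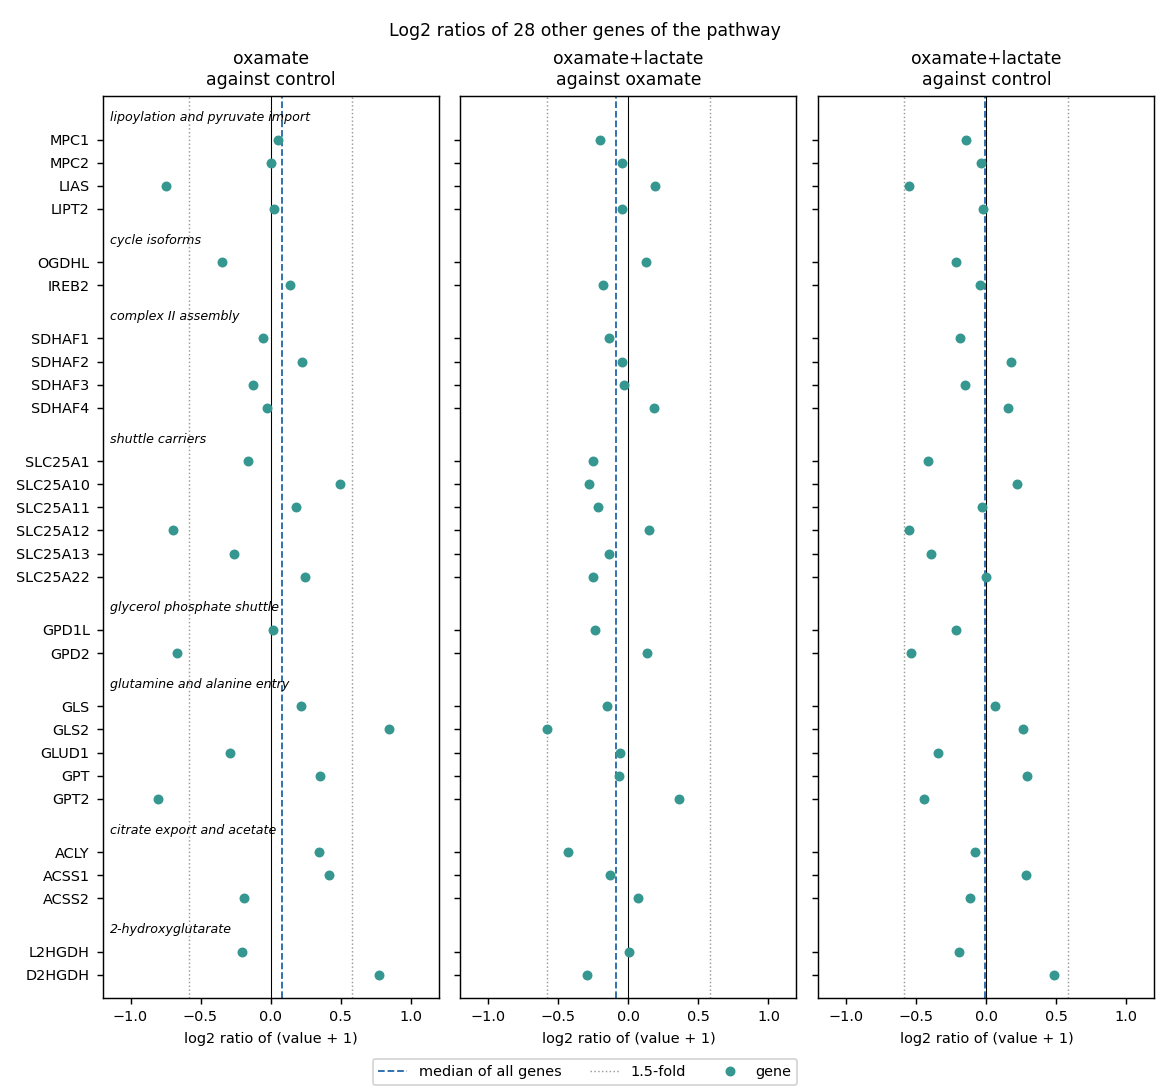
Log2 ratios (x axis) of the 28 other genes of the pathway over the floor, grouped by role, for the 3 pairs of libraries; each point is 1 gene, the dashed line is the median of all genes and dotted lines mark 1.5-fold. LIAS, SLC25A12, GPD2 and GPT2 lie left of the 1.5-fold line in oxamate against control and D2HGDH and GLS2 right of it.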

How the data were processed

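Polyadenylated RNA of 3 Jurkat cultures was sequenced from unstranded libraries, per the labels' protocols. The table deposited by the authors has 17329 genes and 36 ERCC RNAs. Its values were treated as a score, as deposited by the authors: read counts that they normalized, by a method not given in the sources used here, and rounded to whole numbers. The submitters' processing notes name the build hg19, HTSeq 0.11.2, STAR 2.7.1a and FastQC 0.11.9 without saying what each did. No count model was fitted, since these are not raw counts, and depth is unknown. Libraries were grouped by treatment label. Ratios used a pseudocount of 1 and a floor of 50 on the mean (Python 3.11.15, pandas 2.3.3, NumPy 2.4.6). With 1 library per condition no test was possible, and the share of all genes past the same fold stands beside each count. The code was tested on simulated data. Genes named with values are those at least 1.5-fold different and the ends of each role group, with related subunits. Genes, lists and pairs were chosen with earlier results of these data known. Exon overlap, length and GC content came from GENCODE 29 (GRCh38), by symbol, and promoters from RefSeq (GRCh38.p14), cut to 250 bases. The alternatives were 9 settings. Another gene of the pathway list is not reported here.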

Additional observations from a re-analysis of the deposited data

How the results depend on the processing

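Over 9 other settings (4 scalings, a pseudocount of 10, no floor, a floor of 200, the GC content and length trend removed, and genes that overlap others left out), 79 of 81 medians and counts stayed within the ERCC spread or within 1.5 times. The exceptions were the number of genes at least 1.5-fold lower in oxamate+lactate than in control, which was 1 with equal ERCC sums and 1 with the GC content and length trend removed, against 2, as PDK1 no longer passed. The genes described were all over the floor, so removing the floor could not change their values. PCK2, PDK1 and SUCLG2 were over the floor of 200 and not among the genes left out for overlap. Those settings could therefore not change the 1.5-fold counts. Medians counted as unmoved could still change sign. With equal gene sums, that of oxamate against control went from 0.01 to -0.09. That of oxamate+lactate against oxamate went from -0.08 to 0.03. For oxamate against control PCK2 ran from -1.90 to -1.75, PDK1 from -0.94 to -0.81 and SUCLG2 from -0.69 to -0.45. The ratios of these 3 genes past 1.5-fold kept their sign in each setting. SUCLG2 in oxamate+lactate against oxamate, at 0.05 as deposited, was -0.01 with the GC content and length trend removed. Another fold changes the shares, as given above, and per kb of all exons instead of the longest coding transcript MDH2 and IDH2 traded the top places, while GOT2 and PDK1 stayed in theirs. No paired analysis was possible because each condition has 1 library. Depth is unknown, so counting error could not be set beside any difference.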

Other observations

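Other lipoate-dependent or DLD-sharing complexes, with the kinase and phosphatase of the branched-chain complex (BCKDK and PPM1K), were looked up after the values of DLD, DLST and LIAS had been seen, so they are a description. Of 9 genes listed, 8 were over the floor, with a median of -0.09 for oxamate against control. AMT, the aminomethyltransferase of the glycine cleavage system, had 67 normalized counts in oxamate+lactate, 60 in oxamate and 145 in control (-1.26), and GLDC, the decarboxylase of the same system, had 206, 219 and 116 (0.91), so these partners went opposite ways. GCSH, the lipoate carrier of that system, had 60, 68 and 60 (0.18). AMT shares 63.1% of its exon bases with another annotated coding gene, AC104452.1. DBT, the transacylase core of the branched-chain oxoacid dehydrogenase, had 386, 392 and 541 (-0.46), and BCKDHB, a subunit of its decarboxylase, had 335, 308 and 354 (-0.20). DHTKD1, the decarboxylase for oxoadipate, which works with DLST and DLD, had 508, 513 and 621 (-0.28). BCKDK, the kinase of the branched-chain complex, had 410, 477 and 366 (0.38), and PPM1K, its phosphatase, had 508, 540 and 534 (0.02).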
